A study of Mus musculus with 4 samples.

Results

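Transcripts of 10 genes of the NF-kB system were examined in sorted mouse mammary tumor cells with and without an intended deletion of Lsd1 (Kdm1a), a histone demethylase. The genes were chosen by symbol from the 23951 rows of the deposited FPKM table that were not spike-ins, and each of the 10 had 1 row. They are the 5 subunits Rel, Rela, Relb, Nfkb1 and Nfkb2, the inhibitors Nfkbia and Nfkbie, and the feedback genes Tnfaip3, Birc3 and Traf1. FPKM is a level per transcript length and per library size, so levels of different genes can be set side by side.

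There were 2 libraries titled knockout, described in the study's design text as Lsd1L/L conditional alleles, and 2 titled wild-type, described as Lsd1+/+. All the mice were females carrying MMTV-PyMT, a viral oncogene driven in the mammary epithelium, and a Rosa26-Stop-YFP reporter (R26Y). All received Ad-K8-Cre, an adenovirus with Cre under the Krt8 promoter, into the ducts, and YFP+ cells were sorted 2 to 3 months later. YFP marks cells in which Cre acted on the reporter, and the Krt8 promoter is a luminal epithelial one. The labels give no ages and name no animals, so the libraries of a group may be technical repeats, and each p-value covers the spread among the 4 libraries only.

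Kdm1a itself was at 20.2 and 22.8 FPKM in the libraries titled knockout, against 52.5 and 22.9 FPKM in wild-type, and the difference did not pass (limma, adjusted p = 0.34). Since the samples titled knockout also carry a tissue label that reads Lsd1+/+, they are called the knockout-labelled libraries. The knockout-labelled pair had a Pearson correlation across genes of 0.983 on the log2(FPKM + 1) scale, and the wild-type pair 0.847. The 12 lymphocyte markers summed to 2087 and 1990 FPKM in the knockout-labelled libraries, against 17.04 and 72.01 FPKM in wild-type. The 8 luminal epithelial markers summed to 721 and 744 FPKM in the knockout-labelled libraries, against 12199 and 2712 FPKM in wild-type. Epithelial markers of the labelled tumor cells were thus present in every library, beside lymphocyte transcripts at high levels in the knockout-labelled libraries.

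NF-kB is a family of dimeric transcription factors built from Rel family subunits. RelA, c-Rel and RelB carry transactivation domains, whereas Nfkb1 and Nfkb2 encode precursors that are processed to the DNA-binding subunits p50 and p52. Inhibitors of the IkB family hold the dimers inactive until an IkB kinase marks them for degradation. The freed dimers induce genes that include their own inhibitors, the ubiquitin-editing enzyme A20 (Tnfaip3) and adaptor proteins of the TNF receptors. c-Rel is best known from lymphocytes, while RelA is expressed widely, and the pathway is active in mammary epithelium as well.

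Promoter sequences of the members are shown because this family is known for inducing its own subunits and inhibitors through kB sites. RefSeq windows on build GRCm38.p6, from 250 bases before to 50 bases after a gene's start, were at hand for 8 of the 10 members, in 11 windows. Relb and Nfkb1 had no window, so their promoters were not examined. The 150 bases before the start are given for 6 genes, 5' to 3' on the gene's strand, with matches to the decameric kB consensus, read on both strands and merged where they overlap, in capitals. The windows are those of Rel, the member that passed the test, of Rela, the member with the smallest difference, and of 4 members with a match.
Rel (chr11:23770970-23771119, minus strand): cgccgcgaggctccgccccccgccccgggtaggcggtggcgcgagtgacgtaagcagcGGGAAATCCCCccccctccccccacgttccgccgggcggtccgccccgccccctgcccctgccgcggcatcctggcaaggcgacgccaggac
Rela (chr19:5637391-5637540, plus strand): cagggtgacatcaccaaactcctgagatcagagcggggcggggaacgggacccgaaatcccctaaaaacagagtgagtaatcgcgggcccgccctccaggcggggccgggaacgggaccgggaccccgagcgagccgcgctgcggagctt
Nfkb2, most upstream of 3 starts (chr19:46304587-46304736, plus strand): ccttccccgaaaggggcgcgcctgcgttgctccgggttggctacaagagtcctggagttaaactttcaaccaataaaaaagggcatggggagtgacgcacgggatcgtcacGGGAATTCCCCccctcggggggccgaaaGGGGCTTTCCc
Nfkbia (chr12:55492648-55492797, minus strand): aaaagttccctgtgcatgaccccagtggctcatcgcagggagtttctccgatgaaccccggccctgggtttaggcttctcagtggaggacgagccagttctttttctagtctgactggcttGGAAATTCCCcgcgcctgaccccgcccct
Nfkbie (chr17:45555550-45555699, plus strand): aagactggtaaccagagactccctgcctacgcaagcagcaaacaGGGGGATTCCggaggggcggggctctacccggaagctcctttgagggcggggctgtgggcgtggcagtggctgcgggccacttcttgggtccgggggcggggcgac
Tnfaip3, most upstream of 2 starts (chr10:19015411-19015560, minus strand): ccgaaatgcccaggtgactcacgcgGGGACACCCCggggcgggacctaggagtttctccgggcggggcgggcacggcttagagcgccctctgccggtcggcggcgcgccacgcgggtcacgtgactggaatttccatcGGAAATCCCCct

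Of the 8 genes with a window, 5 held a match to the kB consensus, in 7 of 11 windows, while 8.46% of all 32851 windows of that length held one. In Rel the match was GGGAAATCCCC with its first base at position -92 from the start. In Nfkb2 the most upstream window held GGGAATTCCCC at -39 and GGGGCTTTCC at -11. Its other windows overlap and share a GGGACTTTCC, so this site counts for both windows. The second window also held GGAATGTCCC at -236. Nfkbia held GGAAATTCCC at -29, Nfkbie GGGGGATTCC at -106, and Tnfaip3 GGGACACCCC at -125 and GGAAATCCCC at -12. Rela, Birc3 and Traf1 held no match in these windows. The matches are letters in a window and were not tested for binding.

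All 10 members had higher levels in both knockout-labelled libraries than in either wild-type library, but 1 of the 10, Rel, passed the test across all genes. Of 11138 genes tested, 16.5% passed and 9.51% passed as higher, so the count of 1 in 10 is near that background. Groups did not overlap, with the knockout-labelled libraries higher, in 39.3% of the genes tested. The median difference of the members was 1.24 on the log2(FPKM + 1) scale, labelled knockout minus wild-type, against 0.08 over all genes tested, and 8 of the 10 differed by at least 1, as did 16.0% of genes tested. A further 6 members had an adjusted p between 0.05 and 0.1 (limma), and 7 of the 10 had an unadjusted p under 0.05, as did 21.6% of genes tested in that direction. In 9 of 10 members the first wild-type library was lowest and the second stood between it and both knockout-labelled libraries, an order seen in 22.0% of genes tested.

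**Figure D1:**
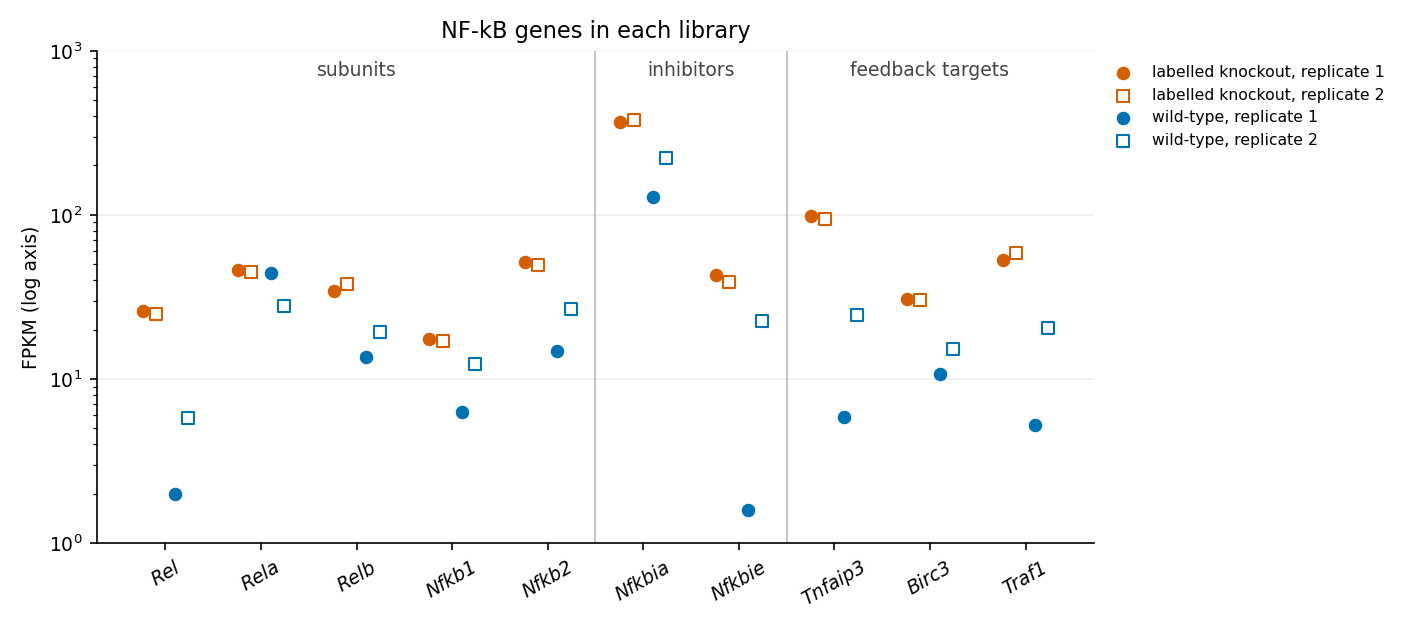
FPKM (log axis) of each of the 10 members in each of the 4 libraries, with the knockout-labelled libraries left of wild-type and members ordered by role. Every orange point lies above both blue points of its gene, by a narrow margin for Rela (44.8 against 44.5 FPKM).

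The members' spread lay almost wholly in the wild-type pair. Within the knockout-labelled pair the higher value exceeded the lower by 1.01 to 1.10 times, and within the wild-type pair by 1.43 to 14.3 times. In 4 members the second wild-type library was over 2 times the first. The median of the members' log2(FPKM + 1) was 5.51 and 5.42 in the knockout-labelled libraries, against 3.21 and 4.49 in wild-type. The test result for Rel therefore depended on the knockout-labelled pair being kept whole: without its first or second library the adjusted p was 0.45 or 0.46 (limma). With the first wild-type library left out 10 members passed, where 40.0% of genes tested passed as higher, and with the second left out 9 passed, against 41.1%, since the fit then took its spread from the knockout-labelled pair alone.

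Among the subunits, Rel, which encodes c-Rel, had the largest difference. It was at 25.9 and 24.9 FPKM in the knockout-labelled libraries, against 2.00 and 5.80 FPKM in wild-type. The groups did not overlap, and both wild-type values were low. Rel thus rose, with a log2(FPKM + 1) difference of 2.55 (SE 0.47, n = 2 and 2; limma, adjusted p = 0.044). Its level ranked at the 78.9th and 77.9th percentile of tested genes in the knockout-labelled libraries, against the 22.9th and 46.1st in wild-type. The call ended with a pseudocount of 0.1 (adjusted p = 0.055) or with no filter on low values (adjusted p = 0.078).

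Rela, which encodes the widely expressed subunit p65, had the smallest difference of the 10. It was at 46.0 and 44.8 FPKM in the knockout-labelled libraries, against 44.5 and 27.8 FPKM in wild-type. The first wild-type library thus stood close to the knockout-labelled libraries, and the second was lowest, the one exception to the order seen in the other members. The difference was 0.36 (95% interval -0.46 to 1.18; limma, adjusted p = 0.41). Leaving out the second wild-type library gave 0.03, and leaving out the first gave 0.69.

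The subunits of the alternative pathway, in which RelB pairs with p52, had higher levels without passing. Relb was at 34.4 and 37.9 FPKM in the knockout-labelled libraries, against 13.6 and 19.4 FPKM in wild-type. Nfkb2, which encodes the p100 precursor of p52, was at 51.5 and 49.4 FPKM in the knockout-labelled libraries, against 14.9 and 26.5 FPKM in wild-type. Groups did not overlap for either gene, with ratios of means of 2.19 for Relb and 2.44 for Nfkb2. The differences were 1.11 for Relb (SE 0.25; limma, adjusted p = 0.060) and 1.30 for Nfkb2 (SE 0.33; adjusted p = 0.073). Relb passed after rescaling of all libraries to a common FPKM total (adjusted p = 0.048).

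Nfkb1, which encodes p105 and p50, was at 17.5 and 17.0 FPKM in the knockout-labelled libraries, against 6.30 and 12.3 FPKM in wild-type. It was the lowest of the 10 members in both knockout-labelled libraries. Its difference was 0.89 (95% interval -0.14 to 1.91; limma, adjusted p = 0.16), and 0.45 without the first wild-type library.

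The 5 subunits summed to 175 and 174 FPKM in the knockout-labelled libraries, against 81.2 and 91.9 FPKM in wild-type, and the make-up of that sum differed between groups for Rel and Rela. Rel made up 14.8% and 14.3% of the sum in the knockout-labelled libraries, against 2.46% and 6.31% in wild-type. Rela made up 26.2% and 25.8% in the knockout-labelled libraries, against 54.8% and 30.2% in wild-type. Nfkb2 made up 29.4% and 28.4% in the knockout-labelled libraries, against 18.3% and 28.9% in wild-type. Rela was therefore the leading subunit transcript in both wild-type libraries, though only narrowly in the second, and Nfkb2 in both knockout-labelled libraries. The ratio of Rela to Rel was 1.78 and 1.80 in the knockout-labelled libraries, against 22.3 and 4.79 in wild-type. Relb, Nfkb1 and Nfkb2 had shares that overlapped between groups. With 2 libraries against 2 an exact permutation test cannot go below a two-sided p of 0.333, so these shares carry no test.

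**Figure D2:**
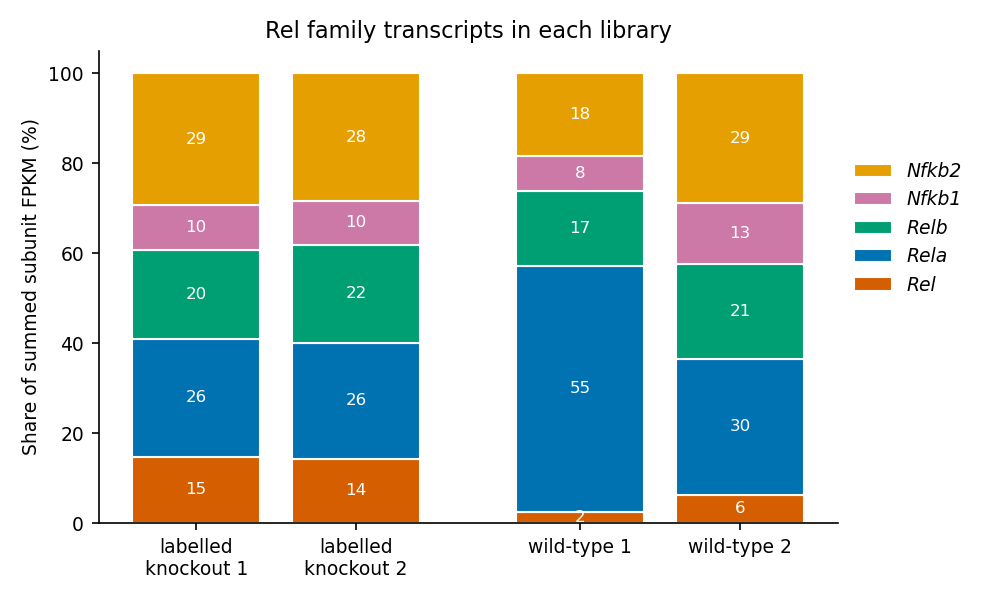
Share (%) of each of the 5 Rel family subunits in their summed FPKM, 1 bar per library, with the knockout-labelled libraries on the left. The Rel segment is 14.3 to 14.8% in the knockout-labelled libraries, against 2.46 and 6.31% in wild-type, and the Rela segment is largest, at 54.8%, in the first wild-type library.

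The inhibitors both had higher levels in the knockout-labelled libraries, and neither passed. Nfkbia, which encodes IkB-alpha and is rapidly re-induced by NF-kB, was the most abundant member in all 4 libraries, at 370 and 381 FPKM in the knockout-labelled libraries, against 129 and 223 FPKM in wild-type. Its difference was 1.14 (SE 0.31; limma, adjusted p = 0.080), with groups that did not overlap, and 0.75 without the first wild-type library. Nfkbie, which encodes IkB-epsilon, was at 43.2 and 39.3 FPKM in the knockout-labelled libraries, against 1.58 and 22.6 FPKM in wild-type. The wild-type libraries differed most for this gene, and its difference of 2.43 had a 95% interval from -0.83 to 5.69 (limma, adjusted p = 0.21). Leaving out the first wild-type library gave 0.84, and leaving out the second gave 4.03.

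Set against the sum of all the subunits, the inhibitors did not separate the groups. Nfkbia and Nfkbie together were 2.36 and 2.42 times the summed subunits in the knockout-labelled libraries, against 1.61 and 2.67 times in wild-type, so the groups overlapped. The ratio of Nfkbia to Nfkbie was 8.58 and 9.71 in the knockout-labelled libraries, against 81.5 and 9.84 in wild-type. The second wild-type library was thus close to the knockout-labelled libraries in this ratio, and the first stood apart.

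The feedback genes included the largest difference of all members. Tnfaip3, which encodes A20, a ubiquitin-editing enzyme that shuts off NF-kB signalling, was at 98.4 and 94.7 FPKM in the knockout-labelled libraries, against 5.86 and 24.6 FPKM in wild-type. The groups did not overlap, and the second wild-type library was 4.202 times the first. The difference was 2.88 (SE 0.70; limma, adjusted p = 0.067). Traf1, an adaptor of TNF receptor complexes, was at 53.2 and 58.8 FPKM in the knockout-labelled libraries, against 5.22 and 20.5 FPKM in wild-type. Its difference was 2.30 (SE 0.67; adjusted p = 0.089), and 1.41 without the first wild-type library.

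Birc3, which encodes cIAP2, a ubiquitin ligase of TNF receptor complexes, was at 30.6 and 30.1 FPKM in the knockout-labelled libraries, against 10.7 and 15.3 FPKM in wild-type. The groups did not overlap, and the wild-type pair was closer together than for the other feedback genes. The difference of 1.19 (SE 0.25; limma, adjusted p = 0.052) passed when libraries were rescaled to a common total (adjusted p = 0.042) or with a filter at 5 FPKM (adjusted p = 0.045). Its paralog Birc2, which encodes cIAP1, rose by 1.69 (SE 0.23; adjusted p = 0.032), and the ratio of Birc3 to Birc2 was 1.80 and 1.84 in the knockout-labelled libraries, against 2.75 and 2.96 in wild-type. RefSeq lists each of these symbols among the other's older names, so the rows are taken as the table names them.

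**Figure D3:**
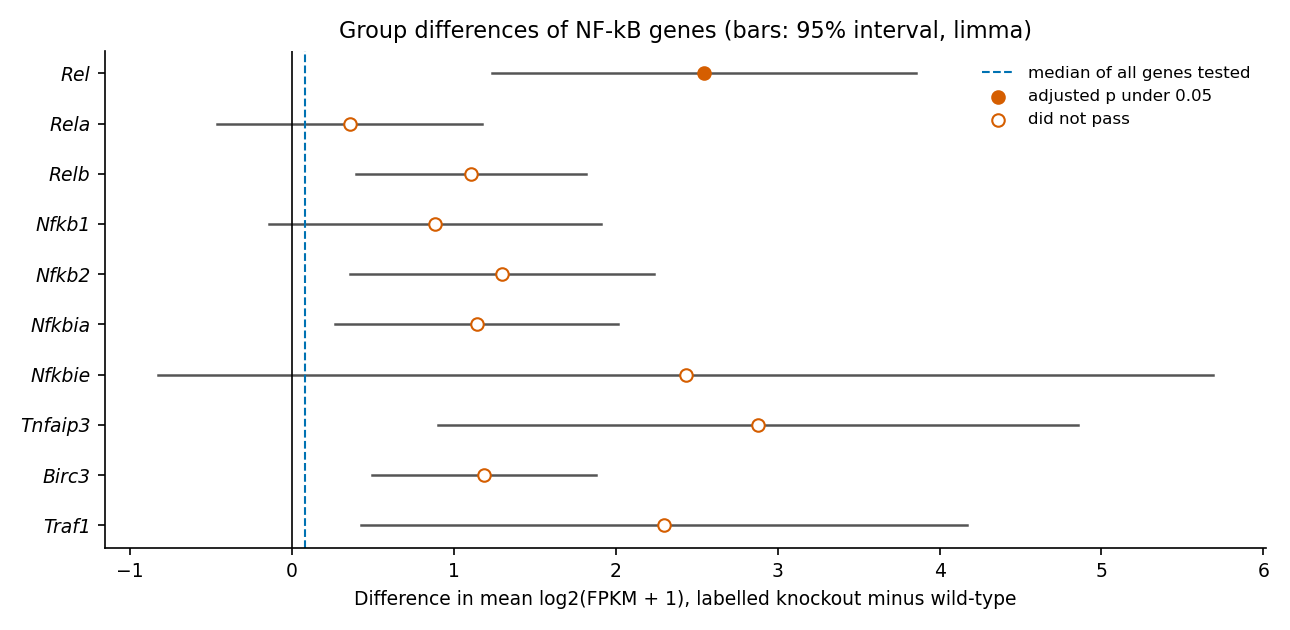
Difference in mean log2(FPKM + 1), labelled knockout minus wild-type, for each member, with its 95% interval from limma, and the median of all genes tested (0.08) as a dashed line. The filled point marks Rel, the member with an adjusted p under 0.05, and the intervals of Rela, Nfkb1 and Nfkbie include 0.

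The order of the members by level was the same in both knockout-labelled libraries: Nfkbia, Tnfaip3, Traf1, Nfkb2, Rela, Nfkbie, Relb, Birc3, Rel and Nfkb1. None of the 9 neighbouring pairs in that order had overlapping ranges there. In wild-type the order by mean was Nfkbia, Rela, Nfkb2, Relb, Tnfaip3, Birc3, Traf1, Nfkbie, Nfkb1 and Rel, and 6 of 9 neighbouring pairs had overlapping ranges. Nfkbia and Rela ranked first and second in both wild-type libraries, whereas 4 members stood above Rela in both knockout-labelled libraries.

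The pattern over the 4 libraries also varied among members, in size or in shape. Distances between patterns were not scaled, so a larger difference of the same shape adds to them. Against the median of the members' gene-centred log2(FPKM + 1), Nfkb2 lay at a Euclidean distance of 0.06, Nfkbia at 0.15 and Birc3 at 0.19, whereas Rel lay at 1.31, Rela at 1.34, Tnfaip3 at 1.81 and Nfkbie at 2.10. The tested genes outside the members with the smallest distance to that median were Rusc1 (0.03), Rbck1 (0.04), Mepce (0.06), S100a8 (0.08) and Supt16 (0.08). That ranking left out predicted genes, pseudogenes, small RNA rows and rows with clone, accession or date names. With 4 libraries, of which the knockout-labelled pair was nearly alike, many genes share this shape.

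The rest of the pathway was described with a list of 81 genes, of which 77 passed the filter on low values. Of these, 18 rose, 6 fell and 53 did not pass, with a median difference of 0.65 against 0.08 over all genes tested. The share that rose stands beside the 9.51% of all genes tested that passed as higher, and the 6 that fell beside 6.99%. The same 9.51% and 6.99% are the background for the counts of each role below. No gene of the series passed without either knockout-labelled library, so none of these calls held there, nor did any hold with no filter on low values. A pseudocount of 0.1 also ended the calls of Cd40lg, Tnfrsf13c and Csf2, and rescaling to a common total that of Bcl2l1.

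The ligands moved in both directions: 4 of 9 rose, 1 fell and 4 did not pass. Ltb, a lymphotoxin chain that signals to the alternative pathway, was at 307 and 319 FPKM in the knockout-labelled libraries, against 2.42 and 17.1 FPKM in wild-type. Lta was at 12.5 and 13.5 FPKM in the knockout-labelled libraries, against 0 and 0.155 FPKM in wild-type, and Cd40lg, the CD40 ligand of helper T cells, at 18.0 and 19.5 FPKM against 0 and 0.83 FPKM. Tnfsf11, which encodes RANKL, was at 4.98 and 4.85 FPKM in the knockout-labelled libraries, against 0 and 0.247 FPKM in wild-type. Adjusted p-values (limma) were 0.024 for Lta, Cd40lg and Tnfsf11 and 0.038 for Ltb. The ligand that fell was Tnfsf13, which encodes APRIL, at 1.86 and 2.70 FPKM in the knockout-labelled libraries, against 21.3 and 15.4 FPKM in wild-type (adjusted p = 0.027). Tnf itself was at 10.05 and 11.7 FPKM in the knockout-labelled libraries, against 5.64 and 17.2 FPKM in wild-type, with groups that overlapped; it was named outside the rule for named genes, after its values were seen.

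Of 13 receptors 5 rose, 3 fell and 5 did not pass. Those that rose include receptors known from T and B cells. Cd27 was at 118 and 121 FPKM in the knockout-labelled libraries, against 0.803 and 2.68 FPKM in wild-type. Tnfrsf18, which encodes GITR, was at 229 and 245 FPKM in the knockout-labelled libraries, against 7.40 and 14.2 FPKM in wild-type, and Tnfrsf4, which encodes OX40, at 70.9 and 71.3 FPKM against 0.438 and 2.35 FPKM. Tnfrsf13c, the BAFF receptor of B cells, was at 30.6 and 30.8 FPKM in the knockout-labelled libraries, against 0 and 1.21 FPKM in wild-type. Ltbr, the lymphotoxin beta receptor, known from epithelial, stromal and myeloid cells, fell to 2.33 and 3.29 FPKM in the knockout-labelled libraries, against 23.2 and 24.6 FPKM in wild-type. Adjusted p-values of these 5 receptors lay between 0.024 and 0.025 (limma).

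Every one of the 16 adaptors and ubiquitin enzymes tested was higher in both knockout-labelled libraries than in either wild-type library, as were 39.3% of all genes tested. Of the 16, 2 passed, near the 9.51% of all genes tested that passed as higher. Birc2 was at 17.0 and 16.4 FPKM in the knockout-labelled libraries, against 3.87 and 5.16 FPKM in wild-type. The median difference of this role was 0.89.

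Of 9 kinases and their partners tested, 2 rose and 7 did not pass. Map3k14, which encodes NIK, the kinase that starts the alternative pathway, was at 11.4 and 11.9 FPKM in the knockout-labelled libraries, against 1.92 and 3.23 FPKM in wild-type (limma, adjusted p = 0.035). Ikbkb, which encodes the kinase IKK-beta of the classical pathway, was at 25.4 and 28.9 FPKM in the knockout-labelled libraries, against 10.3 and 12.5 FPKM in wild-type (adjusted p = 0.041).

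Of 12 other inhibitors and negative regulators 2 rose, 1 fell and 9 did not pass. Nfkbid, a nuclear IkB protein, was at 111 and 114 FPKM in the knockout-labelled libraries, against 6.42 and 17.8 FPKM in wild-type, a difference of 3.27 (SE 0.51; limma, adjusted p = 0.036). Tax1bp1, an A20 partner, was at 104 and 102 FPKM in the knockout-labelled libraries, against 52.9 and 38.5 FPKM in wild-type (adjusted p = 0.046). Among the pseudocounts, scalings and priors tried, its call ended with a pseudocount of 0.1, with median centring, with rescaling to a common total and with a prior that was neither trended nor robust. Commd1, which promotes removal of RelA from chromatin, fell to 35.2 and 31.95 FPKM in the knockout-labelled libraries, against 84.5 and 74.2 FPKM in wild-type (adjusted p = 0.035).

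Known targets of NF-kB outside the 10 members did not move as one. Of 18 tested, 3 rose, 1 fell and 14 did not pass, with a median difference of -0.03 and 9 of 18 above 0. Ccl5, a chemokine of T and NK cells, was at 288 and 326 FPKM in the knockout-labelled libraries, against 58.1 and 87.4 FPKM in wild-type (limma, adjusted p = 0.030). Irf1, a transcription factor of the interferon response, was at 173 and 177 FPKM in the knockout-labelled libraries, against 35.7 and 63.3 FPKM in wild-type (adjusted p = 0.041), and Csf2, which encodes GM-CSF, at 5.003 and 5.77 FPKM, with wild-type at 0.0457 and 0.496 FPKM (adjusted p = 0.028). Bcl2l1, which encodes the survival protein Bcl-xL, fell to 10.6 and 11.1 FPKM in the knockout-labelled libraries, against 27.6 and 24.1 FPKM in wild-type (adjusted p = 0.037). The 4 list genes that were not tested for low values were Xiap, Tab3, Nos2 and Plau.

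**Figure D4:**
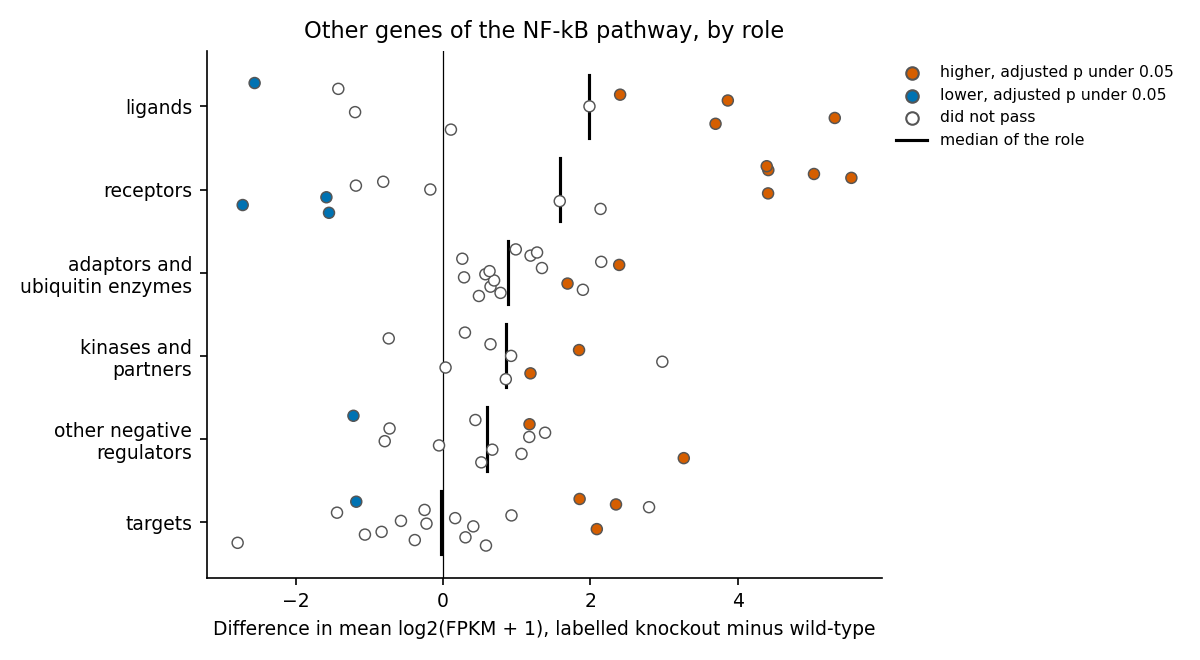
Difference in mean log2(FPKM + 1), labelled knockout minus wild-type, of the 77 other pathway genes tested, by role, with filled points for genes past an adjusted p of 0.05 and a line at each role's median. Ligands and receptors spread from below -2 to above 5, all 16 adaptors and ubiquitin enzymes lie above 0, and the targets centre on -0.03.

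The marker lists differed in whether they moved with the members. The members' order held in 10 of 12 lymphocyte markers and all 3 pan-leukocyte genes, but in no epithelial, endothelial or fibroblast marker. It was also seen in 38 of the 81 other pathway genes and in 22.0% of all genes tested. All 12 lymphocyte markers rose, with a median difference of 5.46, and none was at 0 in any library. The 3 pan-leukocyte genes summed to 920 and 864 FPKM in the knockout-labelled libraries, against 22.7 and 352 FPKM in wild-type, which is the order that 9 of the 10 members followed. The 7 neutrophil markers summed to 1123 and 1207 FPKM in the knockout-labelled libraries, against 260 and 551 FPKM in wild-type. That sum was mostly S100a8 and S100a9, which had the same order, as had 4 of the 7 markers in all; Ngp and Camp rose but were lowest in the second wild-type library, and Csf3r was highest there. The 11 macrophage and dendritic cell markers had a sum that instead peaked in the second wild-type library, at 1091 and 1015 FPKM in the knockout-labelled libraries, against 405 and 13702 FPKM in wild-type. Of these markers 9 peaked there, Lyz2 alone at 9165 FPKM, whereas Flt3 and Xcr1, known from dendritic cells, were low and followed the members' order. The luminal epithelial markers ran the opposite way to the members, highest in the first wild-type library. Of these 8, 1 passed as lower and 7 did not pass, beside 6.99% of all genes tested that passed as lower. Endothelial markers summed to 21.9 and 21.2 FPKM in the knockout-labelled libraries, against 30.2 and 173 FPKM in wild-type, and fibroblast markers to 211 and 209 FPKM, against 253 and 624 FPKM. None of the pan-leukocyte, macrophage and dendritic cell, endothelial or fibroblast markers that were tested passed. The part of these cell types in the members' differences was not tested, and in bulk RNA more cells of a type and more RNA per cell cannot be told apart.

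**Figure D5:**
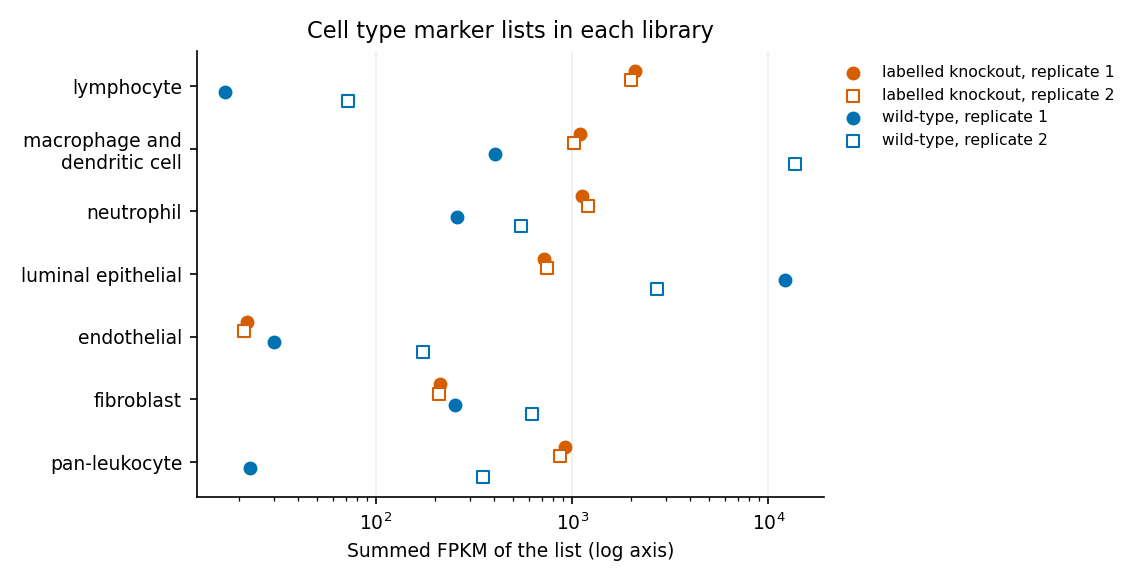
Summed FPKM (log axis) of each marker list in each library, with the knockout-labelled libraries drawn above wild-type in each row. Lymphocyte markers are at 1990 to 2087 FPKM in the knockout-labelled libraries, against 17.04 and 72.01 FPKM in wild-type, and epithelial markers are highest in the first wild-type library.

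Levels were also divided by that of Ptprc, the pan-leukocyte antigen CD45, in the same library, a measure chosen after the values were seen. Ptprc was at 112 and 111 FPKM in the knockout-labelled libraries, against 2.73 and 32.2 FPKM in wild-type. Its own difference did not pass (limma, adjusted p = 0.12). Relative to Ptprc, all 10 members were lower in both knockout-labelled libraries than in the first wild-type library, and 8 were also lower than in the second. The exceptions were Rel, at 0.231 and 0.225 in the knockout-labelled libraries, against 0.731 and 0.180 in wild-type, and Tnfaip3, at 0.880 and 0.855 against 2.14 and 0.766. Nfkbia per Ptprc was 3.31 and 3.44 in the knockout-labelled libraries, against 47.2 and 6.92 in wild-type. The direction of the members' group differences thus turned with the choice of denominator, being upward per library total and, for 8 of 10, downward per Ptprc. The mean of Ptprc in the knockout-labelled libraries was 40.7 and 3.46 times its first and second wild-type values. Any gene with smaller ratios than these falls per Ptprc, whether or not it is a member. The share of all genes tested that fall so was not computed.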

How the data were processed

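RNA of YFP+ sorted tumor cells was made into low-input Clontech SMARTer mRNA libraries, per the labels' protocols, and the submitters' processing notes name genome build mm9. Which aligner, quantification tool and annotation the authors used is not stated in any source at hand. The authors deposited FPKM values, 1 per gene and library, under a header with no unit, which was therefore inferred from the values. Columns summed to 401786 and 402946 in the knockout-labelled libraries and to 402436 and 449838 in wild-type. The table holds no read totals. Over genes under 0.1 FPKM in both libraries compared, the commonest ratio of values put the first knockout-labelled library at an estimated 0.93 times the depth of the second, and the wild-type libraries at 1.02 and 0.85 times. Of these ratios 60.1, 46.5 and 51.1% lay within 0.2% of a ratio of whole numbers up to 6, so the estimate rests on about that share of them.

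Of 24043 rows, 92 spike-in rows (all 0) were left out. The 11138 genes that reached 1 FPKM in 2 or more libraries, all 10 members among them, entered the test. Values were transformed to log2(FPKM + 1), which understates changes of low genes, and fitted by limma 3.58.1 (R 4.3.3) with a trended, robust prior and Benjamini-Hochberg adjustment across all of them at 0.05. Simulated data were used to test this fit. Groups came from sample titles. Intervals are from limma's moderated spread. Members and lists were chosen with earlier results of these data known. Outside the members, the text names by rule up to 5 passing pathway genes of lowest p in each role, and the 5 nearest genes by pattern; 1 gene the rule names is not reported here. Of the markers, Adgre1 was read under its older symbol Emr1, and Ly6g had no row. Promoter windows were from RefSeq on GRCm38.p6, another build than mm9, and were matched by symbol. Alternatives covered pseudocount, filter, scaling, prior, the replicate block and leaving out each library.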

Additional observations from a re-analysis of the deposited data

How the results depend on the processing

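All 10 members kept a positive difference in every one of the 13 alternative settings run. Groups without overlap fix this direction wherever libraries are not rescaled against each other, so there it is no sign of stability. It was not fixed under rescaling to a common total, median centring and quantile normalization, where the difference of Rela was 0.44, 0.26 and 0.31. The median difference of the members, 1.24 with all libraries, ranged from 0.88 (first wild-type library left out) to 1.61 (second left out). The number of members called, 1 in the fit as reported, was 0 with a pseudocount of 0.1, with no filter on low values and with the replicate block, 2 with a filter at 5 FPKM and 3 after rescaling to a common total. It ranged from 0 to 10 when 1 library was left out. The number of genes called, 1837, was 2 with no filter (5063 at an unadjusted p under 0.05), 501 with the replicate block, and 0 to 7292 when 1 library was left out. Without a knockout-labelled library it was 0, with 1154 and 1128 genes at an unadjusted p under 0.05 (limma). The number of other pathway genes called, 24, was 0 with no filter, 14 with the replicate block, which ended the calls of Birc2, Map3k14, Ikbkb, Commd1, Tax1bp1, Bcl2l1 and Irf1 among those named, and 0 to 64 when 1 library was left out. A group reduced to 1 library is assumed to vary like the other group, so the high counts without a wild-type library rest on the close knockout-labelled pair. The replicate numbers are not said to pair libraries, and same-numbered deviations had a correlation of -0.06 across genes, so the block shows no pairing here. With the block, which leaves 1 residual degree of freedom per gene, Rel had an adjusted p of 0.054. Of calls over all genes 57.6% were higher, and 69.1% with the block; other scalings gave 51.0 to 64.0%. They placed the median of all genes between -0.01 and 0.15. Depth limits low genes most. Values of 0 for Lta, Cd40lg, Tnfsf11 and Tnfrsf13c, all in the first wild-type library, thus do not show that the transcripts were absent.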
